A study of Mus musculus with 2 samples.

Results

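Among dissociated cells of mouse inter-limb somites, the cells described here carried RNA of Sox9 together with Col2a1 and Col9a1, a transcription factor and 2 collagen chains of cartilage. A cell was taken when it held at least 1 UMI of Sox9, at least 5 of Col2a1 and at least 2 of Col9a1, with no UMI of Sox2 or Sox10 and fewer than 2 of Scx. A UMI is the random tag given to each captured transcript, so that PCR copies of 1 molecule count once. The rule was met by 860 of 19446 cells kept, namely by 54 of 9851 in the E9.5 library (0.548%, 95% Clopper-Pearson interval 0.412 to 0.715) and 806 of 9595 at E11.5 (8.40%, 7.85 to 8.97). The cells were thus chosen by their measured UMIs of these 6 genes, and they are called Col2a1/Col9a1 cells below.

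Both libraries came from wild type C57BL/6 embryos, and at each age the somites lying between the limb buds of 3 embryos were pooled into 1 droplet library. The E9.5 library held 10121 barcodes with 149368952 UMIs and the E11.5 library 10167 barcodes with 136655763 UMIs, and cells with at least 200 and fewer than 6500 genes and under 15% mitochondrial UMIs were kept. With 1 library per stage there are no replicates, so stage and library cannot be told apart, no test was possible, and every interval given covers counting error only. The libraries shared 30 barcodes, of which 2 belonged to Col2a1/Col9a1 cells in at least 1 of them. Doublets were not removed, and 4 Col2a1/Col9a1 cells of E9.5 and 61 of E11.5 (7.41% and 7.57%) were among the highest 8% of doublet scores of their library.

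The vertebral column and ribs form from the sclerotome, the part of each somite that loosens into mesenchyme in response to Sonic hedgehog from the notochord and floor plate. SOX9 commits such cells to cartilage, and together with its relatives SOX5 and SOX6 it switches on the genes of the cartilage matrix. That matrix is a network of fibrils made of collagen types II, IX and XI, filled with aggrecan, a large proteoglycan that binds water, and with smaller link and matrilin proteins. Collagen IX is built from 3 different chains, encoded by Col9a1, Col9a2 and Col9a3, of which the rule used only the first.

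The rule acted on raw UMIs, and its genes are given as a description. At E9.5, 3929 cells held Sox9, 118 of these also reached 5 UMIs of Col2a1, 65 of those reached 2 of Col9a1, and the exclusions left 54. At E11.5 the same steps left 3988, 1531, 1164 and 806 cells, and the limit on Scx, a tendon transcription factor, removed most of the last difference, since 1132 cells were left before it. Per cell, Col2a1 had a median of 5 UMIs in the E9.5 library (range 5 to 10) and of 11 in the E11.5 library (5 to 59), and Col9a1 a median of 3.5 (2 to 10) and of 6 (2 to 34). The E9.5 cells thus lay close to the threshold, with 29 of 54 at exactly 5 UMIs of Col2a1, beside 48 cells that met every other condition and had exactly 4. At E11.5 the 64 cells with exactly 5 faced 64 with exactly 4. On the Col9a1 side, 92 E11.5 cells had exactly 2 UMIs and 82 that met the other conditions had exactly 1, with Col9a3 at 74.6 UMIs per 1000000 UMIs just inside and 62.1 just outside. Median depth was 14384 UMIs in the early cells (range 6428 to 55806) and 12135 in the E11.5 cells (2339 to 39636).

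All genes were set against Pax1 or Pax9 cells of the same library, that is, cells with at least 1 UMI of either sclerotome transcription factor and none of Col9a1. There were 1086 such reference cells at E9.5, with a median of 12832 UMIs, and 1116 at E11.5, with a median of 12260. Among the highest 8% of doublet scores were 14.5% of them at E9.5 and 7.97% at E11.5. A level is the number of UMIs of a gene per 1000000 UMIs of the class (UPM), and a ratio is given on the log2 scale with the exact 95% interval of the ratio of 2 Poisson counts in brackets. UMIs were counted near the 3′ end of transcripts, and levels are compared between classes, not between genes. A gene was counted as higher or lower when it had at least 20 UMIs in the 2 classes together and differed at least 2-fold. By that rule 3.83% of 11492 genes were higher and 8.48% lower in the Col2a1/Col9a1 cells at E9.5, and 3.54% of 12915 genes were higher and 7.79% lower at E11.5. The median log2 ratio of all counted genes was 0.01 at both stages. Of the genes counted as lower at E9.5, 411 had 0 UMIs in the 54 cells. With these at a floor of 3 UMIs, 5.05% of genes were lower, against 3.83% higher. Part of the excess of lower over higher genes at E9.5 thus rests on absences in few cells. For 139 of the 411 genes the floor itself lay at least 2-fold above the reference level, and they could not be called in either direction. Counts of lower genes at E9.5 are followed by the count at the floor where it differs.

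The reference cells of E11.5 were a mixed class. Osr1, a transcription factor of lateral and limb mesenchyme, had UMIs in 57.4% of them and in 6.70% of the Col2a1/Col9a1 cells, Emx2 in 46.6% against 2.73%, and 227 of the 1116 held at least 2 UMIs of Scx. The 10 muscle genes listed summed to 1078 UPM in the reference cells and 250 in the Col2a1/Col9a1 cells. A second comparison therefore used reference cells that also carried Sox9 and met the same exclusions, and its values are given where they matter.

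The label of cartilage precursors was checked against cartilage genes that the rule did not use. At E11.5, 656 of 806 Col2a1/Col9a1 cells (81.4%, 78.5 to 84.0) held a UMI of Col9a2 or Col9a3, against 11.5% of the reference cells, and 582 (72.2%) held Sox5 or Sox6, against 20.3%. At E9.5, Sox5 or Sox6 was found in 35 of 54 cells (64.8%, 50.6 to 77.3), against 32.7% of the reference cells, but Col9a2 or Col9a3 in only 6 (11.1%, 4.19 to 22.6), against 1.66%. The reference cells were chosen without Col9a1, so the gap between the classes in these shares is not independent of the choice of cells. Col2a1 and Sox9 are also notochord genes, and 4 of the 54 E9.5 cells (7.41%, 2.06 to 17.9) held at least 2 UMIs over the notochord genes T, Noto and Shh. Among the E9.5 reference cells 20 of 1086 did so (1.84%, 1.13 to 2.83). So the cells of E11.5 carried cartilage genes beyond those of the rule, whereas most cells of E9.5 had no UMI of the partner chains of collagen IX and 4 had notochord genes, and the label of cartilage precursors is not used for them here.

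The stretches of sequence before transcription starts of Sox5, Sox6 and Col11a2, which stood higher in these cells at E11.5, and of Col9a1, a gene of the rule, are shown because SOX proteins recognize short words of the kind ACAATG and ACAAAG. These words, read on both strands, are in capitals in the 250 bases before the start, from RefSeq on GRCm38.p6, printed 5′ to 3′ on the strand of the gene. The Sox5 window lies at chr6:143947107-143947356 on the minus strand inside an intron of longer Sox5 transcripts, and the Sox6 window at chr7:115824711-115824960 on the minus strand. Sox6 has 6 windows in the table, and the one printed was chosen as the exon-free one with the most words. The Col9a1 window lies at chr1:24177360-24177609 and the Col11a2 window at chr17:34038888-34039137, both on the plus strand, and none of the 4 overlaps an annotated exon.
Sox5: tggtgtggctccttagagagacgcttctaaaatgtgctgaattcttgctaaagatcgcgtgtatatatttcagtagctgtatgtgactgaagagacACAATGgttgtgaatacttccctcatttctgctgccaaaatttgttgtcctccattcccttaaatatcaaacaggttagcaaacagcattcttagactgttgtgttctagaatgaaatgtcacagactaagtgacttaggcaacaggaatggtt
Sox6: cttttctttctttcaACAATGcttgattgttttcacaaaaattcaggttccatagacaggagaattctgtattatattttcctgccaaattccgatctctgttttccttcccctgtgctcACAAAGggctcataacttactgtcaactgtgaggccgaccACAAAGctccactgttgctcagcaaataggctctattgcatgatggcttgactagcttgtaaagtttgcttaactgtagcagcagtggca
Col9a1: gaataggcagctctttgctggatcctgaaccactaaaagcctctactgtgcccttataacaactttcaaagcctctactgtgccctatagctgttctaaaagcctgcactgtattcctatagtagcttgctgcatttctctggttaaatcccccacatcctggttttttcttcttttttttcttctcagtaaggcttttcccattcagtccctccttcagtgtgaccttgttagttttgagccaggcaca
Col11a2: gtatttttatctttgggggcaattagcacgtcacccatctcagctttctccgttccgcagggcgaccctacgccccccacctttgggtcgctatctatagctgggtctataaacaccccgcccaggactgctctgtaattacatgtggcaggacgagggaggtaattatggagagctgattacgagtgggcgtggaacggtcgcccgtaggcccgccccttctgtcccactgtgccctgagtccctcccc

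The printed Sox5 window held 1 word, the printed Sox6 window 3 and those of Col9a1 and Col11a2 none, while the other exon-free Sox6 windows held 0 and 1. Over the 11 of 15 cartilage genes found in the table, 6 of 19 windows (31.6%) held a word, beside 8292 of 32851 windows of all genes (25.2%). All 6 belonged to 2 genes, the 1 window of Sox5 and 5 of the 6 of Sox6, and the other 9 genes had none. These are matches of letters in a short window and say nothing of binding.

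The regulators of cartilage came first. At E11.5, Sox5, a partner of SOX9, stood at 91.8 UPM in the Col2a1/Col9a1 cells and 18.6 in the reference cells, a log2 ratio of 2.30 [2.11, 2.50]. Sox6, the other partner, stood at 50.4 and 7.42 UPM (2.76 [2.47, 3.07]). Wwp2, a ubiquitin ligase whose gene is a target of SOX9, stood at 101 and 13.0 UPM (2.95 [2.73, 3.18]). All 3 were thus 4-fold or more higher in the Col2a1/Col9a1 cells, and against the Sox9-positive reference cells Sox5 was at 1.82, Sox6 at 1.79 and Wwp2 at 2.45. Sox5 was found in 60.9% of the Col2a1/Col9a1 cells, 15.2% of the reference cells and 4.55% of 66 endothelial cells, which should lack it and give a background. After each cell was thinned to 5000 UMIs these shares were 35.9%, 7.73% and 1.64%. Trps1, a zinc finger repressor of the growth plate, was higher as well (120 and 51.1 UPM, 1.24 [1.11, 1.37]), though by less than 2-fold against the Sox9-positive reference (0.94). Runx2, the master gene of bone and of hypertrophic cartilage, was lower, at 4.39 and 9.83 UPM (-1.16 [-1.67, -0.68]). In all, 4 of 13 counted regulators were at least 2-fold higher and 5 lower, with a median of -0.37.

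At E9.5, 2 of 11 counted regulators, Sox5 and Sox6, were at least 2-fold higher and 2 lower, or 1 at the floor. Sox5 stood at 31.8 and 13.0 UPM (1.30 [0.69, 1.85]) and Sox6 at 43.5 and 18.9 (1.20 [0.70, 1.68]). Wwp2 lay just under 2-fold at 24.4 and 12.3 UPM (0.99 [0.30, 1.61]), and Trps1 stood at 20.2 and 18.8 (0.10 [-0.65, 0.77]). Against reference cells with Sox9, Sox5 and Sox6 at E9.5 were at 0.83 and 0.98, just under 2-fold. The E9.5 values rest on few transcripts, with 30 UMIs of Sox5 and 41 of Sox6 in the 54 cells.

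The cartilage collagens set the E11.5 cells apart. Col9a3, the third chain of collagen IX, stood at 152 UPM in the Col2a1/Col9a1 cells and 5.41 in the reference cells (4.81 [4.49, 5.15]). Col9a2, the second chain, stood at 108 and 8.82 UPM (3.62 [3.36, 3.89]). The 2 chains were thus more than 10-fold higher where the rule had asked only for the first chain, and 47.1% of the cells held both. The reference cells were chosen without Col9a1, so the size of these ratios is not independent of the choice of cells. Against the cells with at least 2 UMIs of Scx described below, which were not chosen by Col9a1, Col9a2 was at 2.01 and Col9a3 at 2.68. Col9a3 was found in 67.0% of the Col2a1/Col9a1 cells, in 5.11% of the reference cells and in 0 of 66 endothelial cells, which allows a share of cells with a UMI of up to 4.55% (3 cells). Thinned to 5000 UMIs, the shares were 44.5% and 2.14%. Of the collagen XI chains, which set the width of collagen II fibrils, Col11a1 stood at 174 and 50.2 UPM (1.80 [1.67, 1.92]) and Col11a2 at 13.4 and 0.802 (4.06 [3.21, 5.05]). Col27a1, a fibrillar collagen of cartilage, was higher by less than 2-fold (50.0 and 27.0 UPM, 0.89 [0.70, 1.08]).

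Genes of the ground substance followed the collagens. Acan, which encodes aggrecan, had 120 UMIs in the Col2a1/Col9a1 cells and 2 in the reference cells, that is 11.2 and 0.134 UPM (6.39 [4.51, 9.45]), and was found in 10.0% of the former. Matn4, a matrilin that bridges collagen fibrils and proteoglycans, stood at 27.1 and 1.14 UPM (4.58 [3.87, 5.38]). Chad, the cell-binding cartilage protein chondroadherin, stood at 5.05 and 0.0668 UPM (6.24 [3.70, 11.57]). These genes were close to absent from the reference cells, and in the Col2a1/Col9a1 cells they came from a minority, 23.7% of cells for Matn4 and 4.96% for Chad. Lect1 (chondromodulin, an inhibitor of vessel growth) was at 3.29 [2.14, 4.68], Mia at 3.81 [2.49, 5.49] and Prelp at 4.11 [2.45, 6.45]. Vcan, the large proteoglycan versican of loose and condensing mesenchyme, was abundant in both classes and higher in the Col2a1/Col9a1 cells (492 and 194 UPM, 1.34 [1.27, 1.40], and 0.92 against the Sox9-positive reference). Of 23 counted genes in the collagen and matrix lists together, 15 were at least 2-fold higher and 2 lower, with a median of 1.99. With the Sox9-positive reference the count was 14 of 22. The 2 lower genes were Dcn, the proteoglycan decorin (-1.28 [-1.47, -1.09], but -0.25 against the Sox9-positive reference), and Itm2a, a membrane protein (-1.03 [-1.11, -0.96]).

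At E9.5 only part of this set was present. Col11a1 stood at 46.7 and 14.3 UPM (1.71 [1.21, 2.18]) and Vcan at 273 and 137 (0.99 [0.80, 1.18]). Hapln1, the link protein that ties aggrecan to hyaluronan, stood at 63.7 and 19.2 UPM (1.73 [1.31, 2.13]), but 43.3% of its UMIs came from 1 cell, and it was found in 97.1% of the endothelial cells. Acan had no UMI in the 54 cells, which allows a share of cells with a UMI of up to 5.56% (3 cells), and Col9a2 and Col9a3 had 3 UMIs each. Of 12 counted matrix genes 5 were at least 2-fold higher and 0 lower, with a median of 0.79. That count was 2 of 10 with the Sox9-positive reference.

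**Figure D1:**
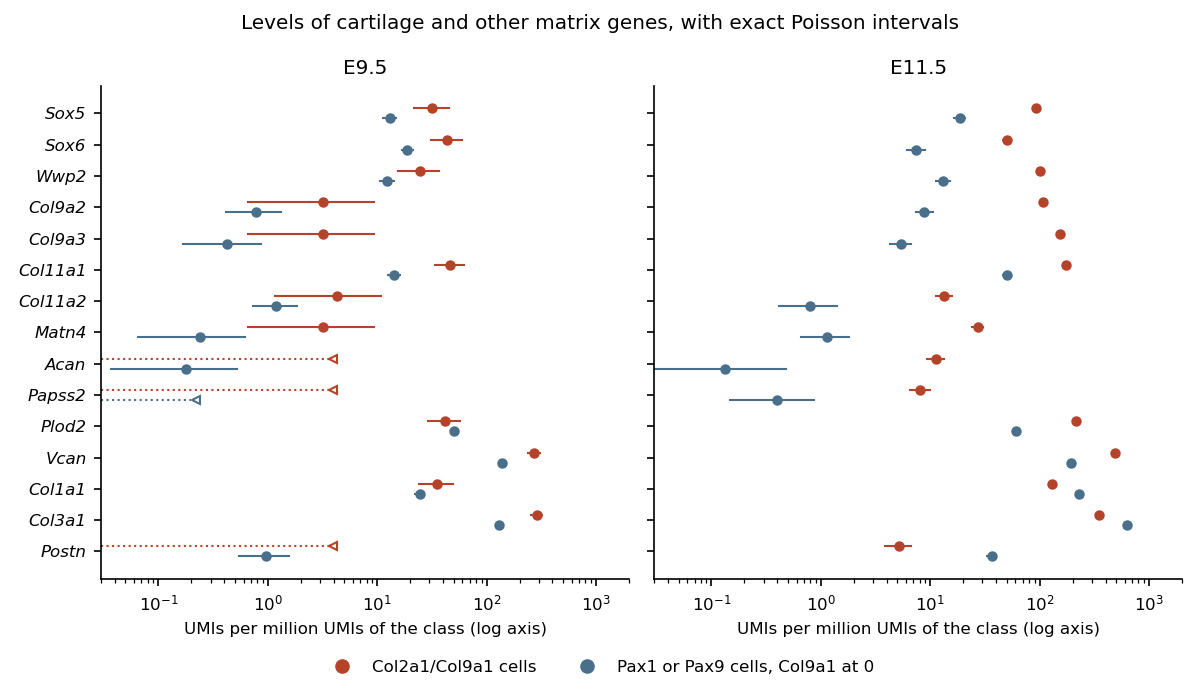
Levels of regulators, cartilage matrix genes and other matrix genes in the Col2a1/Col9a1 cells (red) and in Pax1 or Pax9 cells without Col9a1 (blue), in UMIs per 1000000 UMIs of the class on a log axis, at E9.5 and E11.5. Bars are exact 95% Poisson intervals and open triangles with dotted lines mark the upper limit for a gene with 0 UMIs; at E11.5 Col9a3 (152 and 5.41) and Acan (11.2 and 0.134) lie far apart between the classes, while Postn (5.14 and 36.3) lies the other way.

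Enzymes that build the sugar chains of proteoglycans moved less as a group, with 3 of 21 counted genes higher at E11.5 and 1 lower. The 3 were Papss2, which makes the sulfate donor (8.13 and 0.401 UPM, 4.34 [3.16, 5.83]), Chst3, a chondroitin sulfotransferase (2.03 [1.49, 2.60]), and Ugdh, which makes the UDP-glucuronate of the chains (97.3 and 45.0 UPM, 1.11 [0.97, 1.26]). Of 21 collagen processing genes 2 were higher and 1 lower. Plod2, a lysyl hydroxylase that sets collagen cross-links, stood at 216 and 60.8 UPM (1.83 [1.72, 1.95]), and Creb3l2, a factor that enlarges the secretory pathway in cartilage, at 96.4 and 38.4 (1.33 [1.18, 1.48]). The collagen chaperone Serpinh1, by contrast, stood at 762 and 785 UPM. Lox, which cross-links fibrils outside the cell, was lower (-1.11 [-1.55, -0.68]). At E9.5, 1 of 19 genes of the processing list was 2-fold higher and 0 lower, and of 18 genes of the sugar chain list 0 were higher and 1 lower, or 0 at the floor.

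Of 20 interstitial and basement membrane matrix genes, all counted at E11.5, 0 were at least 2-fold higher and 4 lower, and the other 16 lay within 2-fold on either side, among them Fbn2, a fibrillin gene, at 302 and 202 UPM (0.58). Postn, the matrix protein periostin of fibrous tissue, stood at 5.14 UPM in the Col2a1/Col9a1 cells and 36.3 in the reference cells (-2.82 [-3.25, -2.42]). Col5a2 was at -1.60 [-1.83, -1.38], Col6a1 at -1.42 [-1.75, -1.11] and Col6a2 at -1.64 [-2.02, -1.28]. The chains of collagens I and III lay lower by less than 2-fold, Col1a1 at -0.84, Col1a2 at -0.93 and Col3a1 at -0.86. At E9.5 Col3a1 lay on the other side, at 286 and 131 UPM (1.13 [0.94, 1.31]), and at 0.65 against the Sox9-positive reference, and 2 of 17 genes of the list were 2-fold higher and 0 lower.

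Sclerotome transcription factors other than the genes of the reference rule were described next. At E11.5 Foxc1 and Foxc2, forkhead factors of paraxial mesoderm, stood at 198 and 40.9 UPM (2.27 [2.14, 2.41]) and at 97.3 and 17.1 UPM (2.51 [2.31, 2.71]). Foxd1, another forkhead factor, stood at 350 and 93.5 UPM (1.90 [1.82, 1.99], but 0.94 when cells were thinned to 5000 UMIs before the rule), and Zic1, a zinc finger factor of the dorsal somite, at 288 and 67.5 (2.09 [1.99, 2.20]). Uncx, the homeobox factor of the posterior part of each somite from which pedicles and ribs form, stood at 42.2 and 5.35 UPM (2.98 [2.63, 3.34]). These 5 of 11 counted genes were higher and 0 lower, while Twist1, a factor of mesenchyme, was at -0.70 and Tbx18, the factor of the anterior part, at -0.39 [-0.65, -0.14]. At E9.5 Foxd1 was at 0.85 [0.69, 1.01] and Foxc1 and Foxc2 at 0.30 and 0.29, so the forkhead factors were not 2-fold apart, and of 12 counted genes 0 were higher and 1, Uncx, was lower. Pax1 or Pax9 itself was found in 581 of the 806 E11.5 cells (72.1%) and in 37 of the 54 E9.5 cells (68.5%), and Pax1 and Pax9 together in 40.6% and 24.1%.

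**Figure D2:**
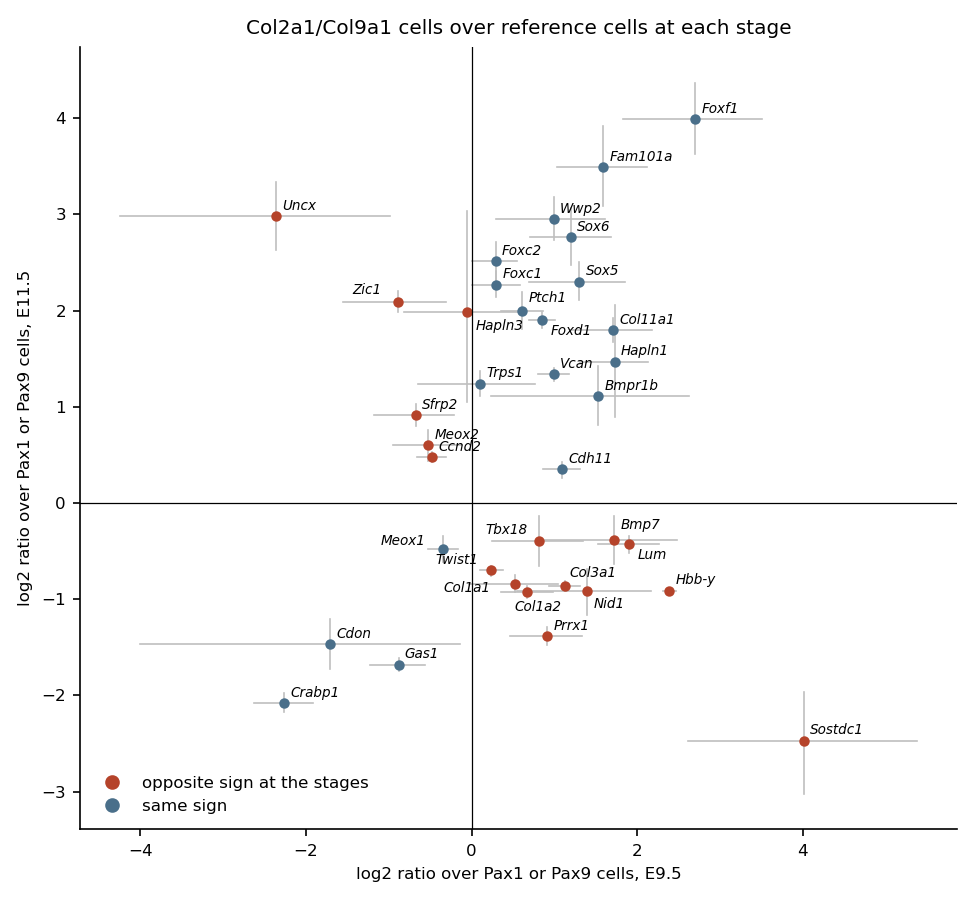
Log2 ratios of Col2a1/Col9a1 cells over Pax1 or Pax9 cells without Col9a1, at E9.5 (horizontal axis) and E11.5 (vertical axis), for genes described at both stages with a value at each. Grey bars are exact 95% intervals, red points have opposite signs at the stages (Uncx at -2.36 and 2.98; the E9.5 intervals of Hapln3 and Col1a1 include 0) and blue points the same sign (Foxf1 at 2.70 and 3.99).

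Hedgehog signalling induces the sclerotome, and PTCH1, its receptor, is also the product of a target gene of the pathway. At E11.5 the target genes were higher, Ptch1 at 79.7 and 19.9 UPM (2.00 [1.81, 2.19]), Gli1 at 14.8 and 5.08 (1.54 [1.14, 1.95]) and Hhip at 3.18 and 0.468 (2.76 [1.57, 4.18]). Foxf1, a forkhead factor downstream of the pathway, stood at 72.4 and 4.54 UPM (3.99 [3.63, 4.37]), its relative Foxf2 at 35.3 and 2.14 (4.05 [3.52, 4.62]) and Foxl1 at 6.92 and 0.668 (3.37 [2.41, 4.49]). The transducer Smo and the effectors Gli2 and Gli3 differed by less than 2-fold. Of the co-receptors, Gas1 at 182 and 583 UPM (-1.68 [-1.75, -1.61]) and Cdon at 14.6 and 40.4 (-1.47 [-1.73, -1.21]) were lower, while Boc stood at 26.0 and 20.8 (0.32 [0.08, 0.56]). In all 6 of 13 counted Hedgehog genes were higher and 2 lower, and at E9.5, 1 of 13 was higher and 2 lower. Against the Sox9-positive reference Gli1 was at 0.92, while Ptch1 was at 1.34 and Foxf1 at 2.55. At E9.5 Foxf1 was already higher (19.1 and 2.94 UPM, 2.70 [1.83, 3.51]), and Ptch1 lay at 150 and 97.8 (0.61 [0.35, 0.86]).

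Among receptors of fibroblast growth factors, Fgfr2, of precartilage condensations, stood at 83.1 and 14.6 UPM at E11.5 (2.51 [2.30, 2.73]) and Fgfr3, of proliferating cartilage, at 10.8 and 1.54 (2.82 [2.16, 3.53]). Feedback genes that FGF signalling induces were lower, Spry2 at 13.4 and 62.2 UPM (-2.22 [-2.48, -1.96]), Spry1 at -1.93 [-2.26, -1.61] and Dusp6 at -1.36 [-1.61, -1.13]. The list thus split, with 3 of 13 counted genes higher and 8 lower. At E9.5, 0 of 12 were higher and 4 lower, and Fgfr2 (18.0 and 16.3 UPM) and Fgfr3 (3.18 and 2.94) did not differ beyond their counting error.

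In the BMP list, 7 of 26 counted genes were higher at E11.5 and 5 lower. Id3, a target gene of BMP signalling, stood at 1075 and 373 UPM (1.53 [1.48, 1.58]), Id4 at 13.9 and 3.28 (2.09 [1.61, 2.59]) and the receptor Bmpr1b, which condensations need, at 21.4 and 9.89 (1.11 [0.81, 1.42]). The ligand Bmp5 was at 1.23 [0.95, 1.51] but at 0.64 against the Sox9-positive reference. Antagonists were found in both directions, with Chrdl1 at 2.36 [1.84, 2.91] and Sostdc1 at -2.47 [-3.02, -1.96]. The antagonist Nog (noggin), counted in the notochord list and not here, was at 2.53 [1.95, 3.15]. Of 24 counted WNT genes 2 were higher, led by the receptor Fzd1 (1.55 [1.35, 1.75]), and 6 lower, among them the ligand Wnt5a (42.9 and 141 UPM, -1.72 [-1.86, -1.57]). In the list of TGF-beta, IGF and parathyroid hormone genes 0 of 16 were higher and 3 lower, namely the growth factor Igf1 (86.6 and 520 UPM, -2.59 [-2.69, -2.49]) and the binding proteins Igfbp3 (-2.40) and Igfbp5 (104 and 519 UPM, -2.32 [-2.42, -2.23]). At E9.5, 4 of 22 BMP genes were higher and 4 lower (3 at the floor), 2 of 24 WNT genes were higher and 3 lower (1 at the floor), and 1 of 16 genes of the TGF-beta list was higher and 5 lower (3 at the floor). The WNT genes at 0 UMIs, Fzd9 and Sfrp5, had too few UMIs to be called in either direction.

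Few genes of the cell cycle list were 2-fold apart between the classes. Of 20 counted genes at E11.5, 0 were 2-fold higher and 1 lower (5.00%), beside 3.54% and 7.79% of all counted genes. The lower gene was the inhibitor Cdkn1a (-1.74 [-2.06, -1.42]). Mki67, a marker of cycling cells, had UMIs in 61.4% of the Col2a1/Col9a1 cells and 53.9% of the reference cells. At E9.5, 0 of 19 genes were higher and 2 lower (10.5%), beside 3.83% and 8.48% of all counted genes (5.05% lower at the floor). These 2 were Cdkn1a, with 0 UMIs in the 54 cells, and Ccne2 (13.8 and 43.1 UPM). Ccnd2 lay lower at E9.5 (-0.48 [-0.66, -0.31]) and higher at E11.5 (0.48 [0.43, 0.53]), by less than 2-fold. In the list of hypoxia and glycolysis genes 0 of 12 were higher and 1 lower at either stage, but the E9.5 gene, Egln3, had 0 UMIs in the 54 cells and was not 2-fold lower at the floor. Notch genes had 0 of 11 higher at both stages, with 1 lower at E11.5 and 4 at E9.5 (3 at the floor). Among adhesion and guidance genes of condensing mesenchyme at E11.5, 1 of 13 was higher, the ephrin receptor Epha7 (85.2 and 36.6 UPM, 1.22 [1.06, 1.37]), and 3 were lower, among them Epha3 (-1.48) and Epha4 (-1.81). At E9.5, 2 of 10 genes of that list were higher and 2 lower. The cadherin Cdh11 of mesenchyme was one of the higher genes there (189 and 88.9 UPM, 1.09 [0.86, 1.31], but 0.66 against the Sox9-positive reference), and at E11.5 it was at 0.35.

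Genes in none of the lists were named by the bound of their interval. At E11.5 the 12 with the highest lower bound were Dlx5, Spp1, Bmper, Zpld1, Sema3e, Trap1a, Penk, Mgp, Ttr, Krt15, Fam101a and Kctd4. Mgp, the matrix Gla protein that keeps cartilage from calcifying, was the most widely found, with 90.7 and 7.08 UPM (3.68 [3.39, 3.98]) and UMIs in 53.8% of the cells. Bmper, a secreted BMP regulator, stood at 44.1 and 1.74 UPM (4.67 [4.10, 5.30]), and Fam101a, an actin-linked protein, at 42.9 and 3.81 (3.49 [3.09, 3.92]). Sema3e, a guidance ligand, was at 4.91 [3.83, 6.24] and Penk, the enkephalin precursor, at 4.18 [3.43, 5.05]. Dlx5, a homeobox factor of bone and cartilage, had 56 UMIs in 27 cells and 0 in the reference cells, at least 26.1-fold higher when the reference is set at a floor of 3 UMIs. Spp1, the bone matrix protein osteopontin, was found in 4.59% of the cells (67.8-fold higher), and Krt15, a keratin of epithelium, in 1.12%, with 32.2% of its UMIs in 1 cell. The 8 with the lowest upper bound included Tbx3, a T-box factor of limb and flank mesenchyme (4.21 and 84.8 UPM, -4.33 [-4.80, -3.90]) and the calcium-binding protein Calb2 (-5.65 [-8.70, -3.77]), with Tbx3os1, Emx2os, Ptgs2os2 and E330013P04Rik as noncoding or antisense genes. Against the Sox9-positive reference Tbx3 was at -3.48.

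At E9.5 the 12 highest were Alcam, Lbh, Ddr2, Mt1, Flrt2, Fam101a, Saa2, Ripply2, Irs4, Sparcl1, Limch1 and Foxp2. Fam101a was on the lists of both stages, at 37.2 and 12.3 UPM here (1.59 [1.03, 2.12]). Ddr2, a collagen receptor of cartilage and bone, stood at 20.2 and 5.22 UPM (1.95 [1.15, 2.68]) and Lbh, a transcription cofactor, at 47.8 and 11.7 (2.03 [1.53, 2.50]). Ripply2 came wholly from 1 cell, and Alcam, an adhesion molecule (23.4 and 3.36 UPM, 2.80 [2.01, 3.53]), was at 0.72 once the 4 cells with notochord genes were left out. The 8 lowest were Hoxa9, Pyy, Rfx4, Hoxb9, Hoxb5os, Ifitm1, Grrp1 and Celf2. Hoxb9, a patterning gene of the posterior trunk, stood at 28.7 and 114 UPM (-1.99 [-2.59, -1.44]), and Hoxa9 had 0 and 207 UMIs, at least 3.90-fold lower.

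Markers of other cell types were summed over whole lists. At E11.5 the 10 muscle genes were all lower, with Mylpf, a myosin light chain, the most abundant in the Col2a1/Col9a1 cells (83.7 and 355 UPM). Mylpf was found in 13.9% of them and in 15.2% of the endothelial cells, with 68.7% of its UMIs in 1 cell, and Actc1, cardiac actin, was found in 3.85%. All 6 counted endothelial genes were also lower. The 8 genes of that list summed to 1.40 UPM against 30.5, with Kdr and the uncounted Tek and Tie1 at 0. The lateral plate and limb list had 3 genes higher, Foxf1, Foxf2 and Osr2, and 5 lower, among them Osr1 (18.2 and 231 UPM, -3.66 [-3.88, -3.45]), Prrx1 (-1.38 [-1.48, -1.29]), Hand2 (-3.11) and Tbx5 (-3.98). All 4 counted nephric genes were lower, led by Emx2 (-4.52 [-4.91, -4.16]). Of 9 counted neural tube genes 6 were lower and 2 higher, Nkx6-1 (18.0 and 3.54 UPM, 2.35 [1.90, 2.82]) and Metrn (1.09 [0.89, 1.30]), with Sox2 at 0 by the rule. Of 6 neural crest and glial genes 2 were higher, among them Tfap2b, and 2 lower. The dermis list had Ebf1 higher (204 and 57.3 UPM, 1.83 [1.72, 1.95]) and En1 and Crabp1 lower, the latter at 103 and 435 UPM (-2.08 [-2.17, -1.98]). All 3 counted genes of surface epithelium were higher, but Krt14 came from 0.496% of the cells and Krt5 from 0.744%. The part of such cells in the ratios was not tested.

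At E9.5 the muscle list had 7 of 8 counted genes lower and the neural tube list 11 of 13, of which 3 and 6 had 0 UMIs in the 54 cells. At the floor 5 muscle and 8 neural tube genes were lower, and for 2 of the muscle genes the floor lay at least 2-fold above the reference level. The neural crest list had 3 of 5 lower (2 at the floor), the endothelial list 3 of 5 (1 at the floor) and the surface epithelium list 1 of 2. The rule excluded Sox2 and Sox10 from the Col2a1/Col9a1 cells but not from the reference cells. There they stood at 39.4 and 3.84 UPM at E9.5 and at 5.61 and 1.20 UPM at E11.5. The counts of lower neural tube and neural crest genes at both stages are thus not independent of the rule. The 3 of 4 nephric genes counted as lower all had 0 UMIs, and 0 were lower at the floor. Lateral plate and limb genes had 2 of 9 higher and 3 lower (1 at the floor), and the dermis list had Lum, a small proteoglycan of connective tissue, higher (82.8 and 22.1 UPM, 1.90 [1.53, 2.26]) and Crabp1 lower (-2.26 [-2.63, -1.91], but -0.35 against the Sox9-positive reference). Blood was higher in 7 of 8 counted genes, and this came from 1 cell that held 99.5% of the 3372 haemoglobin UMIs, with a median of 0 per cell. At E11.5, 6 of 10 blood genes were lower, and 1 cell held 74.0% of 14622 haemoglobin UMIs.

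The 4 E9.5 cells with notochord genes stood apart within the class. T, the brachyury factor that defines the notochord, stood at 1127 UPM in them, Shh, the ligand it secretes, at 2062, Krt8 at 2255, Krt19 at 1540 and Car3 at 2007. T and Shh had no UMI in the other 50 cells. Col2a1 stood at 742 UPM in the 4 cells and Pax1 at 0, against 314 and 187 in the 37 cells with Pax1 or Pax9. The notochord list as a whole had 8 of 12 counted genes higher and 2 lower at E9.5, but Krt19 and Car3 lay at -0.93 and -1.63 without the 4 cells. At E11.5, 0 of 806 cells met the same condition, with an upper limit of 0.372% at 3 cells, and T, Shh and Noto had no UMI. There 4 of 9 counted genes of the list were higher, Foxa1 (5.80 and 0.735 UPM, 2.98 [2.04, 4.05]), Nog, Krt19 and Car3.

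Against the reference cells the tendon list had 0 of 6 counted genes higher and 2 lower at E11.5, and 0 of 4 higher and 2 lower at E9.5, where 1 of them, Egr1, had 0 UMIs and was not lower at the floor. The limit on Scx did not apply to the reference cells, where Scx stood at 75.9 UPM at E11.5, against 20.9. The counts of lower tendon genes are thus not independent of the rule. Tendon progenitors arise beside cartilage from Sox9-positive cells, so the E11.5 cells were also set against 2404 cells with at least 2 UMIs of Scx and none of Sox2 or Sox10. Of 13637 counted genes 4.14% were at least 2-fold higher and 6.54% lower in the Col2a1/Col9a1 cells, which the limit on Scx kept out of the tendon class. Of 25 counted cartilage matrix genes 16 were higher and 2 lower, with a median of 1.30. Col9a3 stood at 152 and 23.8 UPM (2.68 [2.56, 2.80]), Col11a2 at 13.4 and 0.907 (3.88 [3.33, 4.47]) and Acan at 11.2 and 1.02 (3.46 [2.92, 4.04]). Sox6 was more than 2-fold higher (50.4 and 10.4 UPM, 2.28 [2.09, 2.47]), whereas Sox5 was within 2-fold (91.8 and 54.6 UPM, 0.75 [0.64, 0.86]). Pax1 was at 2.18 [2.10, 2.26], Foxc2 at 2.07 [1.94, 2.21] and Foxf1 at 4.07 [3.82, 4.32]. On the tendon side 5 of 7 counted genes were lower and 0 higher, Etv4, an effector of FGF signalling, at 5.05 and 35.8 UPM (-2.82 [-3.25, -2.43]). Dusp6 was at -2.46 [-2.68, -2.24], the matrix proteins Tnc and Postn at -2.03 [-2.28, -1.79] and -3.43 [-3.84, -3.04], and Igfbp5 at 104 and 866 UPM (-3.06 [-3.15, -2.98]).

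Within the E11.5 class, cells were ordered by Col2a1 UMIs per 10000 UMIs and divided into a low, a middle and a high group of 269, 269 and 268 cells, which are ranges and not types. Because the rule asked for 5 UMIs of Col2a1 whatever the depth, the low group was the deepest, with a median of 14585 UMIs against 12196 and 9662.5. Levels of the other cartilage genes were ordered like Col2a1. From the low to the high group Col9a2 stood at 44.2, 109 and 205 UPM, Col9a3 at 68.5, 136 and 300, and Matn4 at 9.58, 23.7 and 58.1. Acan was steepest, at 1.40, 6.40 and 32.2 UPM (high over low 4.52 [3.34, 6.01]), with 91 of its 120 UMIs in the high group. Wwp2 (38.1, 82.4 and 220 UPM) was ordered more steeply than Sox6 (24.8, 54.3 and 84.2) and Sox5 (62.2, 96.3 and 131). Foxf1 (30.9, 48.2 and 166 UPM), Ptch1 (45.3, 66.2 and 149) and Fgfr2 (52.6, 74.6 and 140) had the same order. The reverse order held for Prrx1 (161, 93.0 and 52.7 UPM), Ebf2 (151 in the low and 40.7 in the high group), Gas1 (268, 152 and 89.9) and Igf1 (139, 65.7 and 33.6). Pax1 changed less (239, 294 and 360 UPM), as did the cycling marker Mki67 (264, 209 and 227). The muscle gene Actc1 stood at 131, 3.90 and 3.54 UPM, and 14.5%, 6.32% and 1.87% of the 3 groups were among the cells with the highest 8% of doublet scores, whose part in these orders was not tested.

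**Figure D3:**
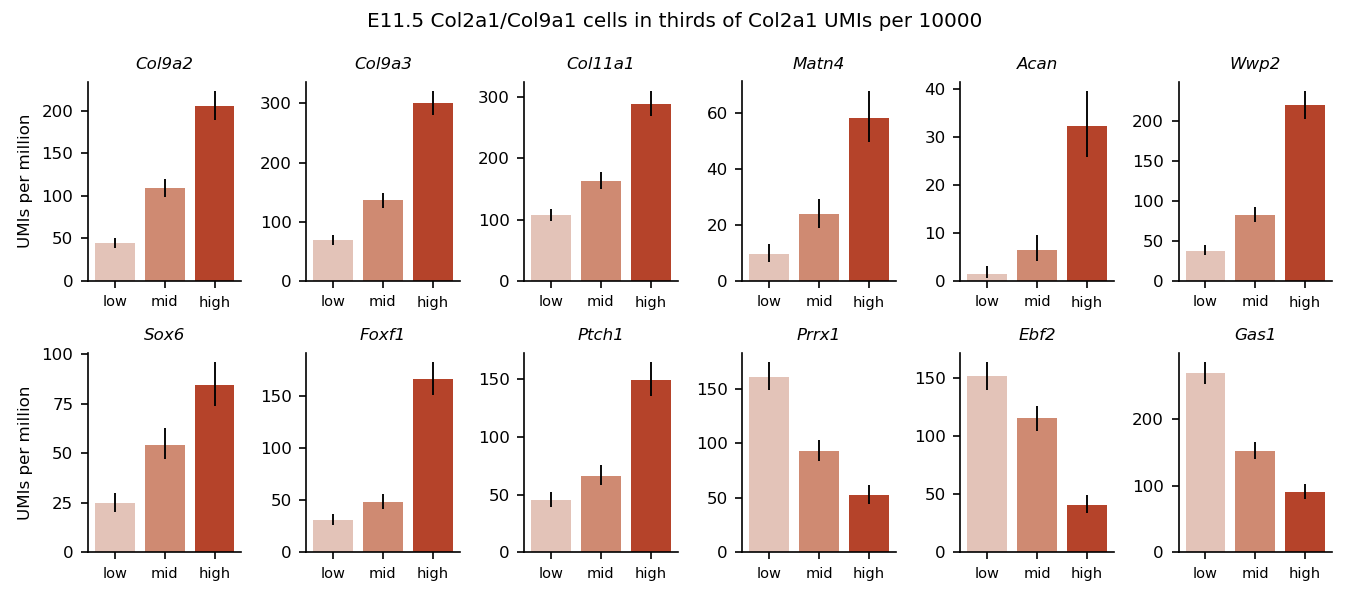
Levels in UMIs per 1000000 UMIs of 12 genes in the low, middle and high group of E11.5 Col2a1/Col9a1 cells by Col2a1 UMIs per 10000, with bars as exact 95% Poisson intervals. The upper row and Sox6, Foxf1 and Ptch1 are lowest in the low group (Acan 1.40, 6.40 and 32.2), and Prrx1, Ebf2 and Gas1 are highest there.

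The E11.5 class was also divided into 581 cells with a UMI of Pax1 or Pax9, to which the related sclerotome gene Nkx3-2 added no cell, and 225 with none of these. The cartilage genes lay close together in both, with Sox5 at 89.6 and 97.7 UPM, Sox6 at 49.0 and 54.1, Col9a2 at 116 and 89.2 and Col9a3 at 144 and 175. The Hedgehog-linked Foxf genes and Penk separated them, Foxf1 at 93.4 and 16.7 UPM (2.49 [2.07, 2.93]), Foxf2 at 46.5 and 5.79 (3.01 [2.31, 3.80]) and Penk at 24.5 and 1.70 (3.85 [2.60, 5.49]). Plod2 was also higher with the Pax genes (260 and 102 UPM, 1.35 [1.17, 1.53]). The cells without them held more Msx2, a homeobox factor of dorsal midline and of bone (28.9 against 1.42 UPM, -4.35 [-5.41, -3.44]), and more Dlx5 (16.0 against 1.16, -3.79 [-5.00, -2.74]). They were also higher in Spp1 (-2.93 [-3.65, -2.25]), Zpld1 (-2.86 [-3.79, -2.01]), Alcam (27.2 and 158 UPM, -2.54 [-2.78, -2.30]), the WNT inhibitor Dkk2 (-2.11 [-2.57, -1.66]), the WNT target Axin2 (-1.51 [-1.86, -1.15]) and Nog (-1.81 [-2.34, -1.29]). Zic1 and Prrx1 lay on the same side, at -0.94 and -1.32. Dlx5 and Spp1, among the genes most enriched over the reference, were thus found mainly in the 225 cells without the sclerotome Pax genes, which by their definition have no counterpart among the reference cells.

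Tbx18 and Uncx mark the anterior and posterior part of each somite. At E11.5, 112 Col2a1/Col9a1 cells (13.9%, 11.6 to 16.5) held Tbx18 without Uncx, 251 (31.1%, 28.0 to 34.5) held Uncx without Tbx18, 8 (0.993%) held both and 435 (54.0%) neither. Uncx was found in 6.67% (2.92 to 12.7) of the cells with Tbx18 and in 36.6% (33.0 to 40.3) of those without, so the genes were rarely seen in 1 cell. The reference cells had 17.6% with Tbx18 only and 4.21% with Uncx only. At E9.5 the balance was the reverse, with 21 of 54 Col2a1/Col9a1 cells (38.9%, 25.9 to 53.1) holding Tbx18 only and 3 (5.56%, 1.16 to 15.4) Uncx only, while the reference cells stood at 19.3% and 19.6%. In endothelial cells, where neither is at home, Uncx was found in 1.52% at E11.5 and 0.483% at E9.5 and Tbx18 in 1.52% and 0.966%.

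The 251 Uncx-only and 112 Tbx18-only cells of E11.5 were compared gene by gene, a division chosen after the values of both genes were known. Of 10056 counted genes 1.73% were at least 2-fold higher in the Uncx-only cells and 3.10% lower. Of 14 counted cartilage matrix genes 2 were higher, Acan (13.0 and 4.18 UPM, 1.64 [0.41, 3.15]) and the small proteoglycan Fmod (15.2 and 2.09 UPM, 2.86 [1.24, 5.18]), and 0 lower, with a median of 0.20. Within 2-fold lay Col9a3 at 126 and 104 UPM (0.28 [0.01, 0.56]), Col9a2 at 103 and 76.0 (0.44 [0.13, 0.76]) and Col27a1 at 46.7 and 31.4 (0.58 [0.09, 1.08]). On the Tbx18 side, also within 2-fold, lay the matrilin Matn4 (18.3 and 31.4 UPM, -0.78 [-1.35, -0.20]), Itm2a (-0.65 [-0.87, -0.43]) and Vcan (346 and 668 UPM, -0.95 [-1.07, -0.83]). Susd5, under the minimum of 20 UMIs, had 15 UMIs in the Uncx-only cells and 0 in the others. Of 8 counted cartilage regulators 0 were 2-fold apart, with Sox5 at 80.5 and 82.9 UPM (-0.04 [-0.36, 0.28]) and Trps1 at 104 and 156 (-0.58 [-0.82, -0.34]). Outside cartilage matrix, Tnc, tenascin C, stood at 26.0 and 1.39 UPM (4.22 [2.33, 7.29]), and the somite factor Meox1 was at 1.66 [1.24, 2.10]. Fgfr3 was at 1.87 [0.54, 3.56] and Ebf2 at 1.09 [0.78, 1.41]. On the Tbx18 side lay the WNT inhibitors Dkk2 (4.43 and 25.8 UPM, -2.54 [-3.49, -1.66]) and Sfrp1 (31.3 and 105 UPM, -1.75 [-2.12, -1.39]), Igf1 (-1.47 [-1.76, -1.18]) and Twist1 (252 and 551 UPM, -1.13 [-1.27, -0.99]). Pax1 was higher with Tbx18 (304 and 476 UPM, -0.65 [-0.79, -0.51]) and Pax9 stood at 149 and 150.

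Markers of other cell types also moved with this division. All 7 counted blood genes were higher in the Uncx-only cells, the 11 genes of the list summing to 810 UPM against 82.9. Hbb-y, an embryonic globin and the most abundant of them, stood at 501 and 53.7 UPM (3.22 [2.89, 3.57]), with 93.6% of its UMIs on the Uncx side in 1 cell. Krt14, a keratin of surface epithelium, had 38 UMIs in 2 Uncx-only cells and 0 in the Tbx18-only cells. The 10 muscle genes summed to 127 UPM in the Uncx-only cells and 330 in the others, and 3 of 6 counted ones were lower. Of these, Actc1 stood at 36.2 and 148 UPM (-2.03 [-2.36, -1.71]), with 98.6% of its UMIs on the Tbx18 side in 1 cell, and Myl1 at 1.66 and 14.6 (-3.14 [-4.74, -1.78]), with 90.5% in 1 cell. In the lateral plate and limb list 3 of 5 counted genes were lower and 0 higher. Prrx1, a homeobox factor of limb and flank mesenchyme, stood there at 60.3 and 134 UPM (-1.15 [-1.44, -0.86]) and was spread over cells, with 8.26% and 7.29% of its UMIs in the highest cell of either side, while Isl1 had 1 UMI against 13, of which 12 lay in 1 cell. The part of such cells in the ratios of this division was not tested.

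**Figure D4:**
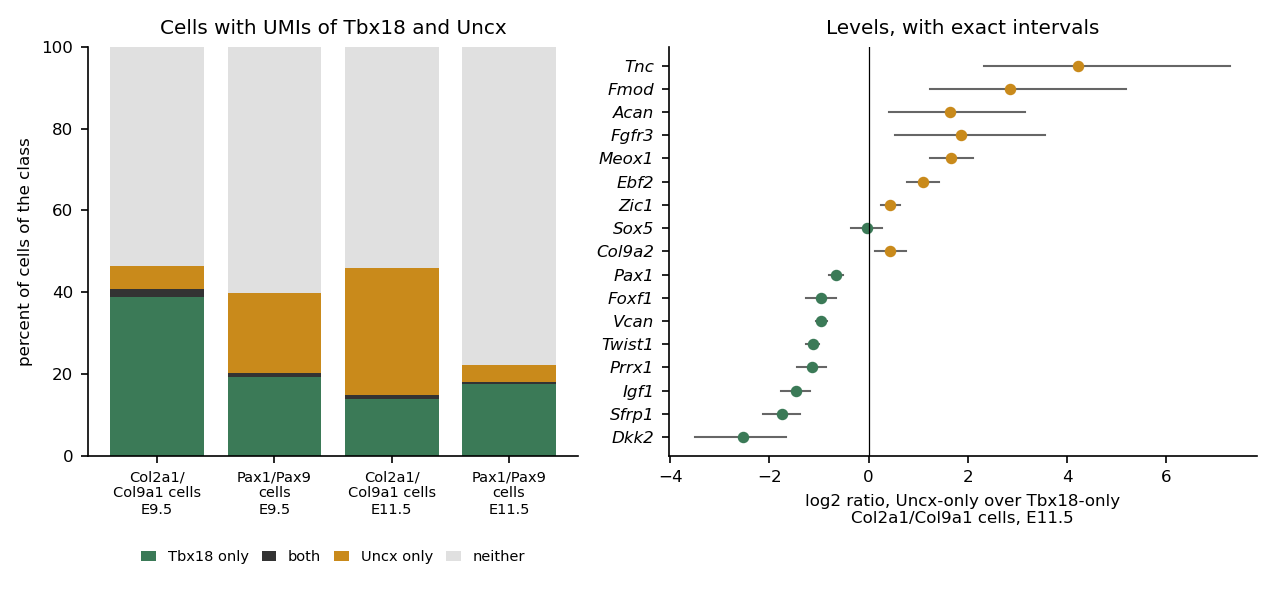
Left, percent of cells of each class and stage with UMIs of Tbx18 only, both, Uncx only or neither; right, log2 ratios of Uncx-only over Tbx18-only Col2a1/Col9a1 cells at E11.5 with exact 95% intervals. Uncx-only cells made up 31.1% of the Col2a1/Col9a1 cells at E11.5 and 5.56% at E9.5, and Tnc (4.22) and Dkk2 (-2.54) lie at the ends of the ratios shown.

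Between the stages, the Col2a1/Col9a1 cells of E11.5 were set against those of E9.5, which differ in number (806 and 54) and in library. They also differ in Col2a1, a gene of the rule, at 340 UPM in the E9.5 and 1017 in the E11.5 cells. Other cartilage genes were ordered like Col2a1 within the E11.5 class, and the part of this difference in the stage ratios was not tested. Of 11452 counted genes 19.6% were at least 2-fold higher (15.9% with genes at 0 UMIs at E9.5 set at the floor) and 3.94% lower at E11.5, with a median log2 ratio of 0.18. The E9.5 cells held 942116 UMIs and the E11.5 cells 10695722, so a gene could reach the minimum of 20 UMIs through the E11.5 cells alone. Of 22 counted cartilage matrix genes 15 were higher and 3 lower at E11.5, with a median of 1.88. With the 5 that had 0 UMIs in the E9.5 cells at the floor, 12 were higher and the median was 1.67. Col9a3 stood at 3.18 UPM in the E9.5 cells against 152 in those of E11.5 (5.58 [4.03, 7.86]) and Col9a2 at 3.18 and 108 (5.09 [3.54, 7.37]). Both were also higher at E11.5 in the reference cells, at 3.69 and 3.50, where the levels were 5.41 and 8.82 UPM at E11.5. Acan had 0 UMIs at E9.5 and 11.2 UPM at E11.5, at least 3.52-fold higher, Matn4 was at 3.09 [1.53, 5.38], Col11a1 at 1.90 [1.47, 2.37] and Col27a1 at 1.86 [1.07, 2.78]. Hapln1 (63.7 and 7.20 UPM, -3.15 [-3.65, -2.63]), Hapln3 (-2.47 [-3.31, -1.57]) and Matn3 (-2.61 [-4.04, -1.05]) were lower at E11.5, as they were in the reference cells (-2.88, -4.51 and -2.99).

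Markers of other cell types moved between the stages as well. Of 8 counted muscle genes 7 were higher at E11.5 and 1 lower, with a median of 5.18, or 6 higher and a median of 2.71 with the 3 at 0 UMIs in the E9.5 cells set at the floor. The 10 muscle genes summed to 22.3 UPM in the E9.5 cells and 250 in those of E11.5, and to 103 and 1078 in the reference cells. Mylpf, the most abundant at E11.5, stood at 3.18 and 83.7 UPM (a log2 ratio of 4.72), with 68.7% of its E11.5 UMIs in 1 cell, and Tnnt1, a troponin, at 1.06 and 52.7 (5.63 [3.15, 10.94]), with 44.0% in 1 cell. The lateral plate and limb list had 6 of 8 counted genes higher (5 at the floor) and 1 lower, the neural tube list 4 of 5 higher and 1 lower and the dermis list 4 of 7 higher (3 at the floor) and 0 lower. Of 8 counted blood genes 6 were lower and 1 higher, with nearly all haemoglobin UMIs of E9.5 in 1 cell as given above, and of 11 counted notochord genes 6 were lower and 1 higher (0 at the floor), with T and Shh at 0 UMIs at E11.5. The part of such cells in the ratios between stages was not tested.

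Of 9 counted cartilage regulators 6 were at least 2-fold higher at E11.5 (5 at the floor) and 0 lower, with a median of 1.53 (1.32 at the floor). Trps1 was at 2.58 [1.93, 3.31] against 1.44 in the reference cells, Arid5b at 1.54 against 2.92 and Zbtb20 at 1.32 against 1.66. Sox5 was higher at E11.5 in the Col2a1/Col9a1 cells (31.8 and 91.8 UPM, 1.53 [1.00, 2.10]), with a smaller ratio in the reference cells (0.52). Sox6 stood at 43.5 and 50.4 UPM (0.21 [-0.25, 0.71]) while it was lower in the reference cells (18.9 and 7.42, -1.35 [-1.67, -1.03]). Wwp2 was at 2.05 [1.46, 2.71] against 0.08 in the reference cells, Plod2 at 2.39 [1.93, 2.88] against 0.27 and Fgfr2 at 2.20 [1.52, 2.99] against -0.16. The ratios of these 3 genes were larger in the Col2a1/Col9a1 cells than in the reference cells, a difference that could not be tested. Wwp2 and Fgfr2 were ordered like Col2a1 within the E11.5 class, and Col2a1 was itself higher in the chosen cells of E11.5. Uncx stood at 4.25 and 42.2 UPM in the Col2a1/Col9a1 cells (3.31 [1.95, 5.19]) and at 21.8 and 5.35 in the reference cells (-2.03 [-2.39, -1.67]), and Zic1 at 25.5 and 288 (3.50 [2.92, 4.14]) and at 47.3 and 67.5 (0.51). Foxc2 and Foxd1 were close to level in the Col2a1/Col9a1 cells (-0.39 and -0.08) and lower at E11.5 in the reference cells (-2.61 and -1.13).

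Outside the lists, the genes with the highest bound at E11.5 over E9.5 were Fibin, Nfib, Hoxc10, Bcl11a, Gdf10, Zic4, Mab21l2 and Hoxc8, and those with the lowest included Aldh1a2, Nr6a1, Prtg, Trim71, Mogat2, Lin28b and Igdcc3. Some had a like ratio in the reference cells, such as the transcription factor Nfib (3.18 and 204 UPM, 6.00 [4.45, 8.28], and 7.29 in the reference cells) and Lin28b, a brake on developmental timing (61.6 and 5.42 UPM, -3.50 [-4.06, -2.95], and -3.33). Zic4 was further apart in the Col2a1/Col9a1 cells (1.06 and 93.7 UPM, 6.46 [3.98, 11.77]) than in the reference cells (1.85 [1.53, 2.19]). Gdf10, a ligand of the BMP family, had 0 UMIs at E9.5 and 67.1 UPM at E11.5, at least 21.1-fold higher, against 1.44 and 15.6 UPM in the reference cells. Aldh1a2, which makes the retinoic acid of young somites, was at 163 and 3.27 UPM (-5.64 [-6.22, -5.11]) against -3.11 [-3.28, -2.95]. None of these differences between stages can be told apart from a difference between libraries.

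**Figure D5:**
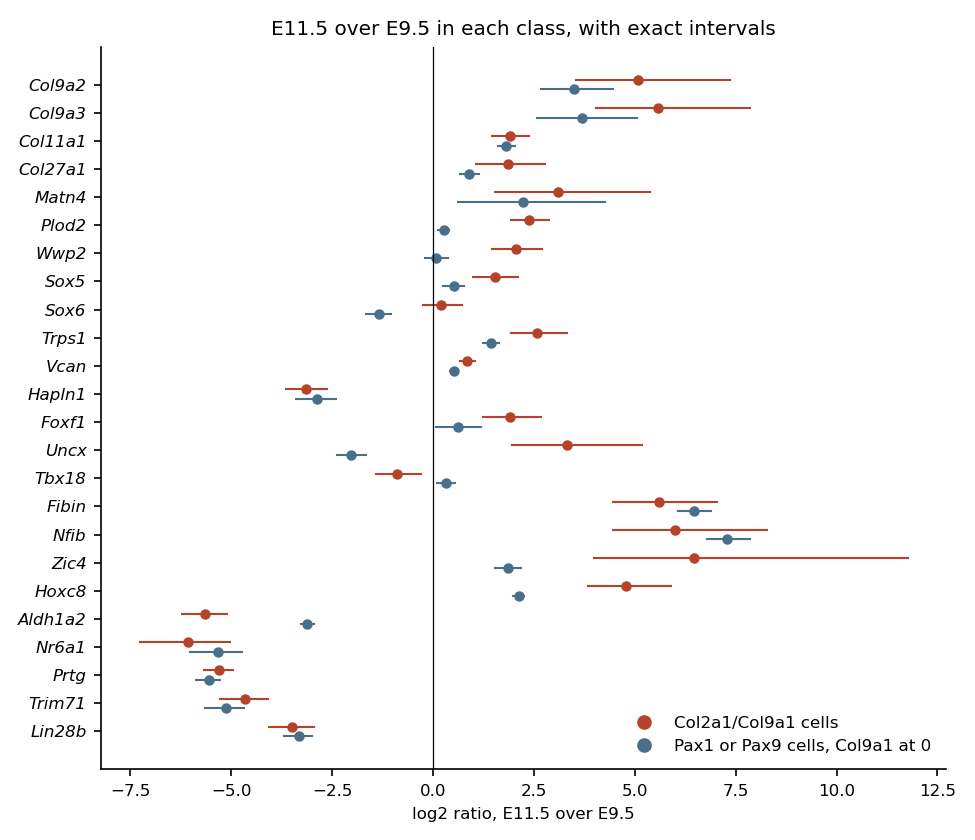
Log2 ratios of E11.5 over E9.5 in Col2a1/Col9a1 cells (red) and in Pax1 or Pax9 cells without Col9a1 (blue), with exact 95% intervals as bars. Col9a3 lies at 5.58 and 3.69 and Lin28b at -3.50 and -3.33, while Uncx (3.31 and -2.03) has opposite signs in the classes.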

How the data were processed

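Droplet 3′ libraries of inter-limb somites were aligned and counted by the authors with Cell Ranger count 3.0.1 on mm10, per the submitters' processing notes, and the deposited values are raw UMI counts per gene and barcode. Cells with at least 200 and fewer than 6500 genes and under 15% mitochondrial UMIs were kept, which removed 270 barcodes at E9.5 and 572 at E11.5. The Col2a1/Col9a1 cells were chosen by measured UMIs, and the members and the 28 gene lists (393 genes) were chosen with earlier results of these data known.

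UMIs were summed per class and divided by the class total. Intervals are exact Poisson intervals for levels, the exact interval of a ratio of 2 Poisson counts for ratios and Clopper-Pearson intervals for shares, all at 95%. A fold against a class with 0 UMIs was computed against a floor of 3 UMIs over the class, and the upper limit given for a share of 0 is 3 cells of the total, for cells with a UMI and for counting error only. With 1 library per stage no count model was fitted. On Poisson counts simulated from the E11.5 class sums, 95.7% of 12913 intervals held the true ratio. This checks the computation only, since the counts were drawn as the interval assumes. It does not cover UMIs gathered in single cells. Genes outside the lists were named by their interval, the 12 with the highest lower bound and the 8 with the lowest upper bound per library among genes with at least 50 UMIs, and 8 in each direction between stages.

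Endothelial cells, used as background, had Cdh5 and Pecam1 and no Sox9 (207 cells with a median of 16101 UMIs at E9.5, 66 with 17928 at E11.5). Doublets were scored with Scrublet. Its automatic threshold called 587 barcodes (5.8%) at E9.5 and 0 at E11.5, where it had not worked, so the highest 8% of scores (825 and 844 barcodes) were removed as an alternative. Other alternatives changed the thresholds and exclusions of the rule, depth, gene minimum, reference cells and single cells. Upstream windows came from RefSeq on GRCm38.p6, with windows that overlap an exon not printed. Python 3.11.15, numpy 2.4.6, scipy 1.17.1, pandas 2.3.3, scanpy 1.11.5 and matplotlib 3.10.9 were used. Some genes that the rules name are not reported here.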

Additional observations from a re-analysis of the deposited data

Results flagged for a closer look

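For 15 genes of the text the ratio over the reference cells had opposite signs at E9.5 and E11.5, with both counting intervals clear of 0. The difference between the stages was not tested, since each stage is 1 library. The values are the log2 ratio at E11.5 minus that at E9.5. A turn of sign can come from either class, and is not by itself a change in the Col2a1/Col9a1 cells. Genes whose ratio went from lower to higher were Uncx (5.34), Zic1 (2.98), the WNT modulator Sfrp2 (1.58, from -0.67 to 0.91), the somite factor Meox2 (1.12) and the cyclin gene Ccnd2 (0.96).

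Genes whose ratio went from higher to lower were Sostdc1 (-6.48, from 4.01 to -2.47), the haemoglobin gene Hbb-y (-3.30), Lum (-2.33), the basement membrane gene Nid1 (-2.32, from 1.40 to -0.92), Prrx1 (-2.29, from 0.91 to -1.38), the ligand gene Bmp7 (-2.10, from 1.72 to -0.38), Col3a1 (-1.99), Col1a2 (-1.60), Tbx18 (-1.21) and Twist1 (-0.94). Prrx1 rose in the Col2a1/Col9a1 cells (54.1 to 110 UPM) but more in the reference cells (28.9 to 285). Sostdc1 fell in the Col2a1/Col9a1 cells (10.6 to 3.27 UPM) and rose in the reference cells (0.660 to 18.1). For Hbb-y the E9.5 value rests on 1 cell. Few UMIs in the 54 cells lie behind the E9.5 values of Sostdc1 (10), Uncx (4), Nid1 (16) and Bmp7 (17).

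Outside the cells kept, 8 E11.5 barcodes met the UMI rule, of which 7 had at least 6500 genes and 1 at least 15% mitochondrial UMIs. At E9.5 there were 2, both with at least 6500 genes.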

How the results depend on the processing

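No paired analysis was possible because each stage is 1 library. The share of Col2a1/Col9a1 cells followed the thresholds and depth. At E9.5 it was 0% with at least 2 UMIs of Sox9, 10 of Col2a1 and 4 of Col9a1 (which left no E9.5 or stage values), 2.99% with Col2a1 at 3 and Col9a1 at 1, and 0.0215% after thinning to 5000 UMIs. At E11.5 it was 4.27%, 11.1% and 3.78%, and 12.1% with no exclusions. The E9.5 share with notochord genes was 1.69% under the looser rule, 12.3% (8 of 65 cells) with no exclusions and 100% (2 of 2 cells) after thinning. The 5 cartilage matrix genes higher at E9.5 became 2 of 8 after thinning, 3 of 11 in cells with at least 10000 UMIs, 2 of 10 with the Sox9-positive reference, 2 of 8 with a minimum of 100 UMIs and 11 of 26 with no minimum. The 15 at E11.5 became 8 of 14 with a minimum of 100 UMIs.

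At E11.5, 0 of 1251 values for 98 genes turned the sign of a ratio past 2-fold, and 15 of 81 genes past 2-fold fell below it somewhere. At E9.5, 5 of 691 values for 62 genes turned: Ripply2 (-0.20, looser rule), Ncam1 (0.42, thinned), Hbb-y (-3.56, highest doublet scores removed), and Krt19 (-0.93) and Car3 (-1.63) without the 4 cells with notochord genes, and 21 of 42 genes past 2-fold fell below it somewhere. Between stages 1 of 509 turned, Cdkn1c (-2.21, thinned), and 3 of 43 fell below. Among genes under 2-fold, 3 changed sign somewhere at E11.5, 5 at E9.5 and 2 between stages. The cause was not tested where no cell is named. Setting list genes at 0 UMIs at the floor, removing the highest 8% of doublet scores or cells with at least 100 haemoglobin UMIs, and the minimum of 100 UMIs between stages, were chosen after seeing the data. At E9.5, 54 cells limit every value.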
